A study of Homo sapiens with 30 samples.

Results

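The cadherin switch genes examined here were 3 genes of the epithelial state, CDH1, CDH3 and EPCAM, and 3 genes of neural and mesenchymal adhesion, CDH2, CDH6 and CDH11. Their members were the open chromatin peaks that overlapped the gene body with 50 kb on each side, in each of 10 peak lists. After peaks that shared at least 1 bp were merged over the lists, the 6 windows held 278 of 493444 regions, 100 at the epithelial and 178 at the neural genes. A region counted as open wherever a list placed a peak on it.

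The lists came from OmniATAC-seq, in which a transposase cuts accessible DNA, on H1 cells, a human embryonic stem cell line of wild-type genotype. Undifferentiated cells (hPSC, day 0) were turned into definitive ectoderm (DE, day 1) with A8301 (1 µM), trametinib (250 nM), C59 (1 µM) and LDN193189 (100 nM), which block activin receptors, MEK, WNT secretion and BMP receptors. All later groups carried that step. Anterior neural ectoderm (aNE, day 2) followed in the same A8301, LDN193189 and C59 with thiazovivin (1 µM), a ROCK inhibitor that aids survival. Posterior neural ectoderm (pNE, day 2) followed in A8301, LDN193189, thiazovivin, the retinoid TTNPB (50 nM), FGF2 (20 ng/mL) and the tankyrase inhibitor XAV939 (1 µM). On day 4 both had been moved to telencephalon, midbrain or hindbrain medium, which gave aNE_T, aNE_M, aNE_H, pNE_T, pNE_M and pNE_H. Cells kept past day 2 were plated at 75000 per cm2 as aNE and at 150000 per cm2 as pNE. Origin and density therefore cannot be told apart on day 4. The day 2 lists came from cells plated at 37500 per cm2, in aNE and pNE alike. Steps from day 2 to day 4 therefore also differ in plating density, and the 2 cannot be told apart. The 30 libraries were 3 per group, but each group had 1 peak list with positions only. No value below therefore has a replicate error or a test, all come from 1 cell line, and read depth is unknown. In bulk lists a change in the share of cells with an open region and a change within each cell cannot be told apart. Lists held from 167792 peaks (aNE) to 313095 (pNE_H) on chromosomes 1 to 22, X and Y.

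Classical cadherins join neighbouring cells by binding like cadherins across the gap and hold the actin skeleton through catenins. Epithelia and pluripotent cells mainly use E-cadherin (CDH1), and neural plate cells are known to replace it with N-cadherin (CDH2) as the neural tube forms. EPCAM is a single-pass adhesion protein of epithelia and of pluripotent cells. CDH6 and CDH11 are type II cadherins, known from regional patches of the neural tube and from mesenchyme.

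Of the 6 genes, 1 had promoter sequences in the reference table, CDH2, with 2 annotated starts (RefSeq, GRCh38.p14). They are shown because the data separated them. The 250 bases before each start are given 5′ to 3′ on the minus strand, and capitals mark bases inside a peak of all 9 lists after hPSC. The outer start lies at the end of the gene, chr18:28177131-28177380, and the inner one within the gene body, chr18:28036642-28036891.
CDH2 outer start: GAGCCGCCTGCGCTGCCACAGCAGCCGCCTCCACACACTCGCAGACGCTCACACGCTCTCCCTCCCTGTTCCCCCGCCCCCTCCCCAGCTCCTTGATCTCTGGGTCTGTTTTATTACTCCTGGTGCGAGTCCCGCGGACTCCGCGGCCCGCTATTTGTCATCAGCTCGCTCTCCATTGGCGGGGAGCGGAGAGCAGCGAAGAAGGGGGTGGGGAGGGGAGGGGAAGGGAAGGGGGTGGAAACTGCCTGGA
CDH2 inner start: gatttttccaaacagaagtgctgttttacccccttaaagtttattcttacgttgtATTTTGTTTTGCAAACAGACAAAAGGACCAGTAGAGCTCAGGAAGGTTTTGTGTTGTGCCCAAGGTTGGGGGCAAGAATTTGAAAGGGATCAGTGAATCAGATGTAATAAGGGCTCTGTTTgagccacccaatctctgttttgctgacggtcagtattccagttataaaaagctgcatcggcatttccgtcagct
All 250 bases of the outer start lay inside a peak in hPSC and in each of the 9 later lists. Of the inner 250 bases, 0 were inside a peak in hPSC, 233 in DE, 155 in aNE and, with posterior medium, 217 in pNE. On day 4 the numbers were 205 in aNE_T, 241 in aNE_M, 161 in aNE_H, 250 in pNE_T, 122 in pNE_M and 250 in pNE_H. The 250 bases before the inner start thus had no peak in the pluripotent list and a peak in every list from day 1, with 121 bases common to all 9. The bases next to the start, in lower case, were not inside a peak of all 9 lists. Of 35116 promoters in the table, 104 (0.296%) lay at a region that was closed in hPSC and open in the other 9 lists, and 20073 (57.2%) at one open in all 10. The E-box CAGGTG or CACCTG (1 motif read on both strands), which SNAI and ZEB repressors are known to bind, was in neither CDH2 sequence and in 17.5% of all 250-base promoters. The Grainyhead-like motif AACCGGTT was also in neither, and in 0.117% of all promoters.

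The start at the end of the gene was open in all 10 lists for all 6 genes, unlike the inner start of CDH2. At the CDH1 start (chromosome 16, region 68736857 to 68738839) peaks covered between 848 bp in pNE_M and 1604 bp in pNE, with 1442 bp in hPSC. At EPCAM (chromosome 2, 47368915 to 47370561) they covered 1498 bp in hPSC, 1618 bp in DE and 1582 bp in aNE. They covered 1226 bp in pNE and from 1129 to 1191 bp in the 6 day 4 lists. The EPCAM start was thus narrower in every day 4 list than in each earlier list. The outer CDH2 start (chromosome 18, 28175153 to 28178561) was the widest of the 6, at 2730 bp in DE, 2913 bp in hPSC and 3100 to 3301 bp in the later lists. The starts of CDH3, CDH6 and CDH11 covered 1534 to 1999 bp, 862 to 1614 bp and 2046 to 3071 bp. The gene table gave no strand for genes other than CDH2, so their starts were taken from the known direction of transcription.

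Taken as groups, the epithelial windows began far more open than the neural ones and the gap was smaller from day 2 on. In hPSC 56 of 100 epithelial regions (56%, Wilson 95% interval 46.2 to 65.3) and 44 of 178 neural regions (24.7%, 19.0 to 31.5) were open. The difference was 31.3 percentage points (Newcombe 95% interval 19.4 to 42.2). In DE it was 26.9 points (14.7 to 38.0), with 60.0% and 33.1% open. These intervals cover the sampling of regions within a list and not the error between libraries. In aNE the epithelial share was 36.0% and the neural share 28.1%, a difference of 7.91 points (-3.29 to 19.4). In pNE the shares were 35.0% and 39.9%, and the difference of -4.89 points (-16.2 to 7.06) had the opposite sign. The intervals of both day 2 lists include 0, and the pNE difference ran from -8.21 to 4.99 points over alternative settings, so its sign did not hold.

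On day 4 the order of the groups varied by list. The epithelial share exceeded the neural one in aNE_T (45.0% and 33.7%) and aNE_M (48.0% and 44.9%). In aNE_H (42.0% and 42.7%), pNE_T (41.0% and 43.3%) and pNE_M (38.0% and 38.8%) they lay within 3 points of each other. In pNE_H 55.0% of epithelial and 65.7% of neural regions were open, a difference of -10.7 points (-22.5 to 1.12) that became 1.96 points with no flank around the genes. The intervals of all 6 day 4 differences include 0 under the main settings. In aNE_T the difference of 11.3 points became 18.4 points (4.47 to 31.5) with lists of 1 size and 12.5 points (1.61 to 23.7) with a 50% coverage rule, and these intervals do not include 0. The sign of the difference turned under some alternative in each of the other 5 day 4 lists. All regions within 50 kb of a protein-coding gene give the level of each list: 44.1% in hPSC, 50.4% in DE, 34.5% in aNE, 40.8% in pNE, 40.1% to 43.2% in 5 day 4 lists and 59.9% in pNE_H. The epithelial interval lay above that level in hPSC and included it in the other 9 lists. The neural interval lay below it in hPSC and DE and included it in the other 8, pNE_H among them.

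**Figure D1:**
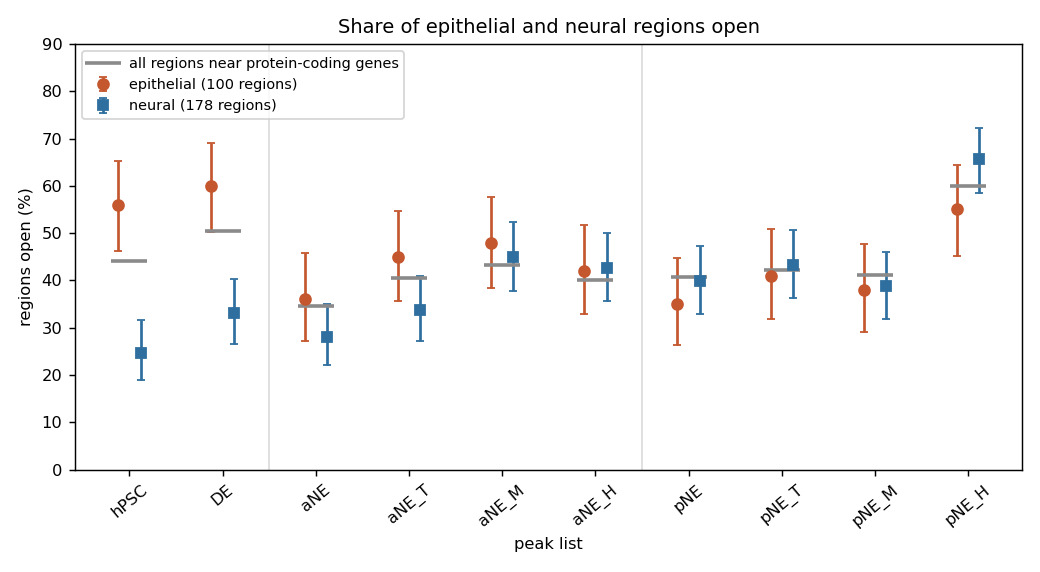
Share of merged regions open in each of the 10 peak lists, in percent, for the 100 epithelial regions (circles) and the 178 neural regions (squares), with Wilson 95% intervals. Grey bars give the share of all regions near protein-coding genes. The groups stand 31.3 points apart in hPSC and 7.91 points apart in aNE. The neural share is the higher value in aNE_H, pNE, pNE_T, pNE_M and pNE_H, though not under every alternative setting.

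Regions that closed and regions that opened were counted apart. Of the 56 epithelial regions open in hPSC, 41 were still open in DE, 32 in aNE and 32 in pNE, and between 29 and 39 in the day 4 lists. Of the 44 neural regions open in hPSC, 31 were open in aNE, 31 in pNE and between 26 and 34 on day 4. The kept shares were 57.1% (44.1 to 69.2) and 70.5% (55.8 to 81.8) in aNE, with overlapping intervals, and 62.2% over all regions near genes. On day 4 they ran from 51.8% to 69.6% and from 59.1% to 77.3%, against 57.5% to 67.8% over all. Of the 44 epithelial regions closed in hPSC, DE had opened 19, while aNE had 4 of the 44 open and pNE 3. These are 9.09% (3.59 to 21.2) and 6.82% (2.35 to 18.2), against 12.7% and 21.5% over all regions near genes. In DE the epithelial share was 43.2% (29.7 to 57.8), against 28.1% over all. On day 4 the epithelial share was 22.7% in aNE_T, 20.5% in aNE_M and 22.7% in aNE_H. It was 25.0% in pNE_T, 20.5% in pNE_M and 50.0% in pNE_H, so the low values of day 2 were not seen on day 4. Of the 134 neural regions closed in hPSC, 25 (18.7%) were open in DE, and the day 2 lists had 19 (aNE, 14.2%) and 40 (pNE, 29.9%). On day 4 they numbered 27 (20.1%) in aNE_T, 50 (37.3%) in aNE_M and 47 (35.1%) in aNE_H. In the pNE-derived lists they numbered 51 (38.1%) in pNE_T, 39 (29.1%) in pNE_M and 83 (61.9%) in pNE_H. Over all regions near genes the shares were 28.1% in DE, 21.5% in aNE_T, 26.1% in aNE_M and 23.5% in aNE_H. They were 29.7% in pNE_T, 28.2% in pNE_M and 53.7% in pNE_H. The neural share thus lay below that of all regions in DE and aNE_T and close to it in pNE_M.

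Over the whole course 109 of the 178 neural regions (61.2%, 53.9 to 68.1) were open on day 2 or 4 and not before, against 25 of the 100 epithelial regions (25.0%, 17.5 to 34.3). The share was 40.2% over all regions near genes. Regions open in hPSC or DE and never later made up 21.0% of the epithelial and 6.74% of the neural regions, and 14.0% of all. Epithelial regions were open in all 10 lists in 24.0% of cases (16.7 to 33.2) and neural regions in 8.99% (5.61 to 14.1), against 18.5% of all. Windows with no other protein-coding gene form a closer match for the neural genes, whose 3 windows hold none. This comparison was chosen after seeing the data. In the 94914 regions of such windows 47.1% were open on day 2 or 4 only, 11.9% in hPSC or DE only, 15.0% in all 10 lists, and 38.0% in hPSC.

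**Figure D2:**
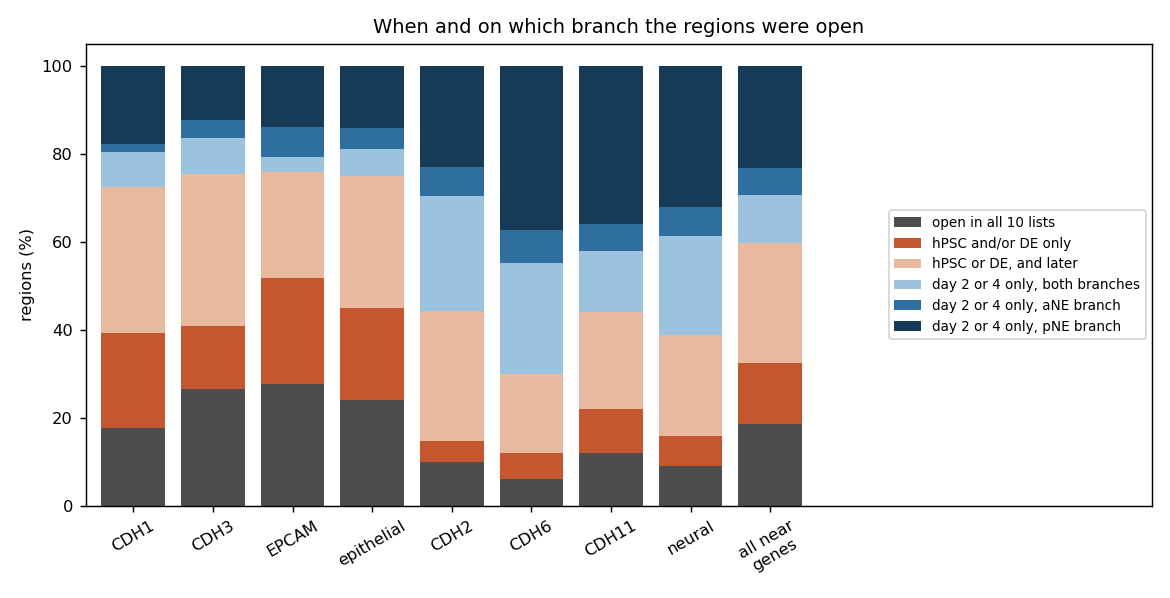
Regions of each gene, each group and all windows, in percent, by the lists in which they were open. Dark orange marks regions open in hPSC or DE only, and the 3 blues mark regions open on day 2 or 4 only. Blue covers 61.2% of the neural and 25.0% of the epithelial bar.

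For single genes, the number of open regions was divided by all open regions of the list, so that longer lists do not count as gains. A gene was called higher or lower in 1 list than in another where this relative number differed at least 1.5-fold and 1 of the lists had at least 5 open regions. The rule was applied to all 20037 protein-coding genes, and the share of genes it called is given as the background. The median gene lay below 0 against hPSC in 8 of 9 lists, down to -0.39 on the log2 scale in pNE_H.

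CDH1, E-cadherin, had its fewest open regions on day 2. Its window on chromosome 16 (gene 68737292 to 68835537, GRCh38) held 51 regions, of which 25 were open in hPSC, 30 in DE, and 15 and 14 in the day 2 lists aNE and pNE. On day 4 the numbers were 22 in aNE_T, 23 in aNE_M, 18 in aNE_H, 20 in pNE_T, 19 in pNE_M and 30 in pNE_H. The day 2 lists were thus the lowest of the 10. Relative to list size, CDH1 was 1.72-fold lower in pNE than in hPSC and 1.31-fold lower in aNE. Per 100000 open regions of the list it had 9.51 in aNE and 9.39 in aNE_H, so the higher day 4 count there did not exceed the growth of the list. The bases inside peaks fell from 12843 bp in hPSC to between 8249 and 10735 bp in 7 of the later lists, while DE had 12287 bp and pNE_H had 12079 bp.

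CDH1 also had 11 regions open in hPSC or DE only, 7 of them in DE alone. The widest region that was open in hPSC and in no later list was at 68724898 to 68725142, at -12.3 kb from the CDH1 start and inside CDH3. Within the gene, 68823430 to 68823827 was closed in hPSC and open in all 9 later lists, and so was 68793367 to 68793609. Loss was therefore not the only direction within CDH1.

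CDH3, P-cadherin, is the neighbour of CDH1, and their windows shared 29 regions, so the 2 genes are not independent. Of its 49 regions 30 were open in hPSC and 30 in DE, and 19 in aNE and 19 in pNE. On day 4 there were 24, 29 and 25 in aNE_T, aNE_M and aNE_H and 22, 19 and 31 in pNE_T, pNE_M and pNE_H. CDH3 was 1.52-fold lower in pNE and 1.60-fold lower in pNE_M than in hPSC, relative to list size. It was 1.06-fold to 1.17-fold lower in the 3 aNE-derived day 4 lists. A region in the gene body, 68685330 to 68685545, was open in hPSC and DE and in none of the 8 later lists.

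EPCAM (chromosome 2, 47369311 to 47387020) lost regions on day 2 and stayed below its early level. Of its 29 regions 18 were open in hPSC, 17 in DE, and 11 in each day 2 list. On day 4 there were 12 each in aNE_T, aNE_M and aNE_H, 9 in pNE_T, 11 in pNE_M and 14 in pNE_H. Both early lists thus stood above all 8 later ones. Against hPSC it was 1.29-fold lower in aNE, 1.58-fold in pNE, 1.41-fold in aNE_T, 1.54-fold in aNE_M and 1.44-fold in aNE_H. In the pNE-derived lists it was 2.04-fold lower in pNE_T, 1.65-fold in pNE_M and 1.93-fold in pNE_H.

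The lost EPCAM regions lay in the flanks, since the gene body held 2 regions and both were open in every list. The widest, at 47332284 to 47332755, at -36.8 kb from the start, was open to day 2 and in no day 4 list. The next, at 47346062 to 47346475, also before the start, was open in hPSC and DE only. The region at 47387742 to 47388028, just past the far end of the gene, was open in hPSC alone.

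CDH2, N-cadherin (chromosome 18, 27932879 to 28177130), gained regions from day 1 on. Of its 61 regions 16 were open in hPSC, 24 in DE and again in aNE, and 30 in pNE. On day 4 there were 29 in aNE_T, 32 in aNE_M, 31 in aNE_H, 34 in pNE_T, 24 in pNE_M and 36 in pNE_H. The hPSC list was the lowest of the 10, in bases as well, with 6656 bp against 8407 bp in DE and 10501 to 16828 bp later. Relative to list size CDH2 was 1.30-fold higher in DE, 1.91-fold in aNE and 1.94-fold in pNE than in hPSC. On day 4 it was 1.94-fold, 1.95-fold and 2.02-fold higher in aNE_T, aNE_M and aNE_H. It was 2.09-fold higher in pNE_T, and 1.484-fold and 1.498-fold in pNE_M and pNE_H, both just under the threshold.

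Of the 61 CDH2 regions 54 lay in the gene body, where 14 were open in hPSC, 21 in DE and from 20 to 34 later. The flanks had 2 open regions in hPSC, 6 in pNE_T and 1 to 4 in the other lists. The widest region that opened on day 2 and was open in all 8 later lists was at 28115044 to 28115593, 61.8 kb into the gene. It had 289 bp in peaks in aNE, 399 bp in pNE and 398 to 534 bp on day 4. The region at 28045466 to 28045762, 131.5 kb in, went the other way and was open in hPSC and DE only.

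CDH6 (chromosome 5, 31193686 to 31329146) had fewer open regions in aNE and aNE_T than in the other late lists. Of its 67 regions 16 were open in hPSC, 15 in DE, 14 in aNE and 15 in aNE_T. There were 23 in pNE, 28 in aNE_M, 27 in aNE_H, 27 in pNE_T, 27 in pNE_M and 47 in pNE_H. Among the anterior cells the count was thus higher in midbrain and hindbrain medium than in telencephalon medium. With lists of 1 size aNE, at 14, no longer stood apart from pNE_M (15), pNE (16), aNE_M (17) and pNE_H (17), while aNE_T had 9. Relative to hPSC the folds were 1.11 in aNE and 1.00 in aNE_T, against 1.49 in pNE, 1.70 in aNE_M and 1.76 in aNE_H. In the pNE-derived lists they were 1.66 in pNE_T, 1.67 in pNE_M and 1.96 in pNE_H. Of the 67 regions 13 (19.4%) were open in pNE_H alone, against 9.29% of all regions near genes. No CDH6 region that was closed in hPSC was open in every later list, and 31362064 to 31362582, past the far end, was open in hPSC alone.

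CDH11 (chromosome 16, 64943753 to 65123744) had 12 of its 50 regions open in hPSC, 20 in DE, 12 again in aNE and 18 in pNE. On day 4 there were 16, 20 and 18 in aNE_T, aNE_M and aNE_H, and 16, 18 and 34 in pNE_T, pNE_M and pNE_H. The higher count of DE was thus not seen in aNE, and pNE_H, the longest list, had 11 regions (22.0%) open in no other list, against 9.29% of all regions near genes. Under alternative settings the CDH11 count in pNE_H ran from 15 to 33. Relative to hPSC CDH11 was 1.44-fold higher in DE, 1.27-fold in aNE and 1.56-fold in pNE. It was 1.42-fold, 1.62-fold and 1.57-fold higher in aNE_T, aNE_M and aNE_H, and 1.31-fold, 1.48-fold and 1.89-fold in pNE_T, pNE_M and pNE_H.

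CDH11 held the widest regions that opened and stayed so. The region at 64980340 to 64981301, 142.9 kb into the gene, was closed in hPSC, had 190 bp in peaks in DE, and 724 and 801 bp in aNE and pNE. It had 496 to 943 bp on day 4. The region at 64933825 to 64934753, past the far end of the gene, was closed in hPSC and DE and had 171 bp in aNE, 286 bp in pNE and 929 bp in pNE_H. The region at 65074983 to 65075769 in the gene body opened in DE and had 271 to 704 bp in peaks after that. Exon positions were not used here.

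**Figure D3:**
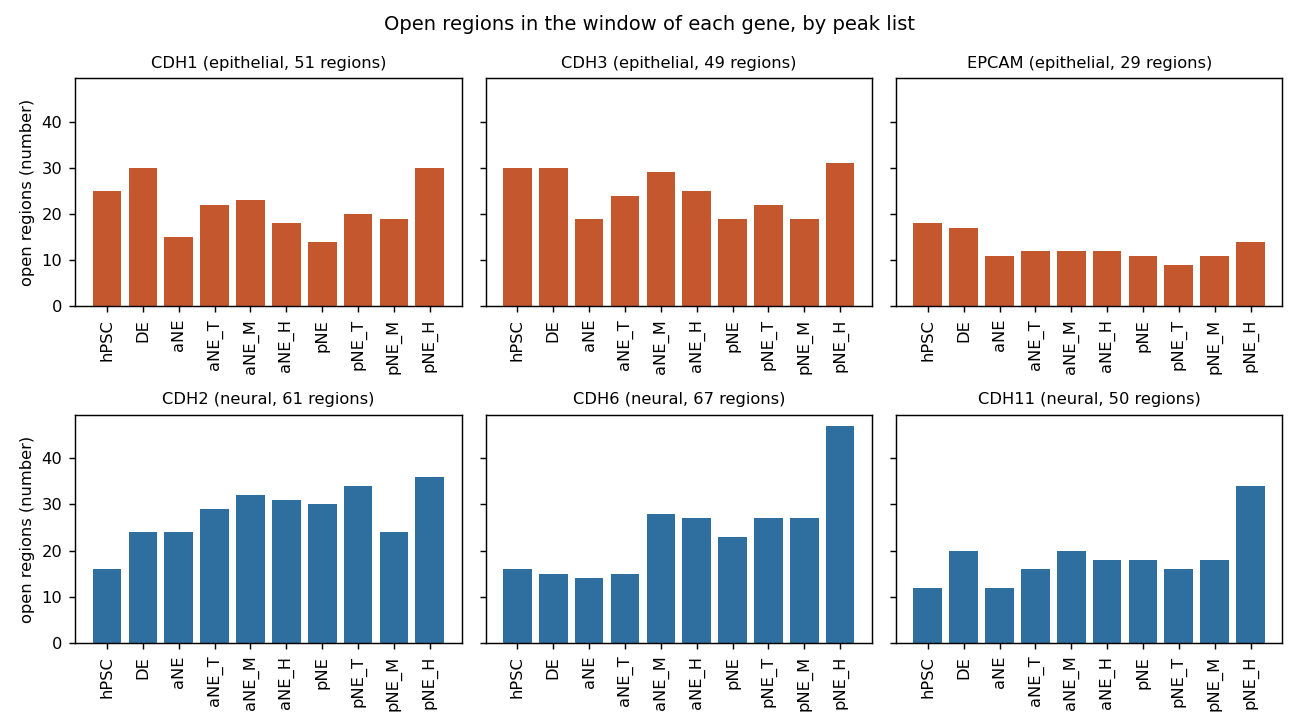
Number of open regions in the window of each gene (bars, from 0), by peak list, with the number of merged regions in each panel title. The upper row shows the epithelial genes, with EPCAM highest at 18 in hPSC. The lower row shows the neural genes, each highest in pNE_H at 36, 47 and 34.

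**Figure D4:**
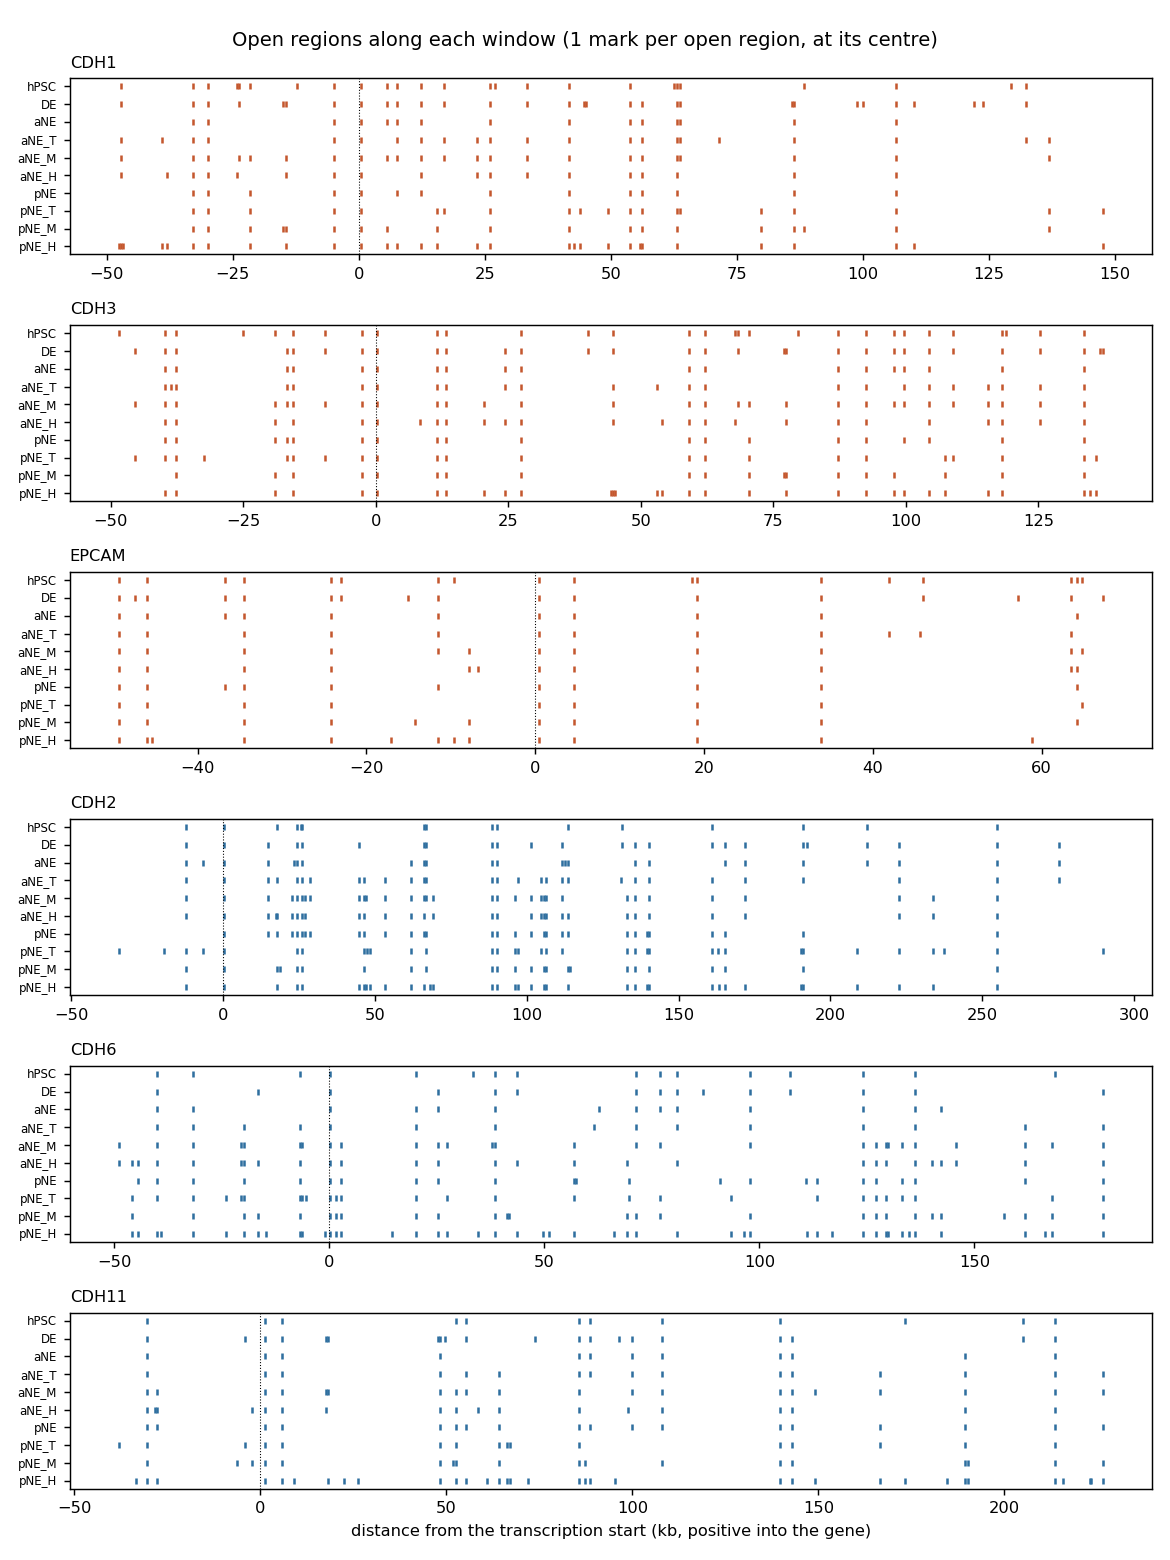
Each mark is a region open in a list, placed at the distance of its centre from the transcription start in kb, positive into the gene. The lists run from hPSC at the top to pNE_H at the bottom. Columns of marks that reach every list include the start at 0 kb, and the CDH2 panel fills in within the gene from DE downward.

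The calls are given beside the share of all genes called. In DE 0 of the 6 genes was called in either direction, with 2.74% of all genes called higher and 3.63% lower. In aNE CDH2 was called higher (background 4.03%) and 0 of 3 epithelial genes lower (6.44%). In pNE all 3 epithelial genes were called lower (background 11.0%), and CDH2 and CDH11 higher (4.14%). CDH6, at 1.49-fold, fell just short. Counted in bases inside peaks, 0 epithelial genes were called lower on day 2. A direct comparison of pNE with aNE called 0 of the 6 genes, with a background of 2.97% higher and 5.69% lower. In it all 3 epithelial genes had lower values in pNE, by 1.22-fold to 1.31-fold, and all 3 neural genes had higher ones, by 1.02-fold to 1.34-fold.

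In the telencephalon medium CDH2 was called higher in aNE_T (background 3.72%) with 0 epithelial genes lower (8.74%). In pNE_T CDH2 and CDH6 were called higher (5.69%) and EPCAM lower (18.1%). In the midbrain medium all 3 neural genes were called higher in aNE_M (4.13%) and EPCAM lower (12.6%). In pNE_M CDH6 was called higher (6.03%), and CDH3 and EPCAM lower (22.0%). In the hindbrain medium all 3 neural genes were called higher in aNE_H (4.59%) with 0 epithelial genes lower (13.8%). In pNE_H CDH6 and CDH11 were called higher (6.24%) and EPCAM lower (36.0%). The neural side thus made 12 calls in 18 pairs of gene and day 4 list, all of them higher. The epithelial side made 5 in its 18 pairs, all of them lower. The pairs of a side share 3 genes and 1 hPSC list, so they are not independent. With pNE_H left out, an alternative added after seeing the data, the counts were 10 and 4 of 15. At a fold of 2 in place of 1.5, 2 neural and 1 epithelial calls were made on day 4 and 0 on day 2.

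On day 4 the lower calls of the epithelial genes stood beside a large background. CDH1 had a relative change above that of 34.4% to 55.3% of genes in 5 of the 6 day 4 lists and of 24.4% in aNE_H. EPCAM stood lower, above 3.32% to 15.5% of genes. CDH2 lay above 98.6% to 99.1% of genes in the aNE-derived lists and pNE_T, and above 93.0% and 93.4% in pNE_M and pNE_H. Among genes with no other protein-coding gene in the window, 4.68% were higher in DE, 6.68% in aNE, 12.6% in pNE and 8.20% to 22.1% on day 4. The neural genes were thus in a class of windows that was called higher more often. CDH2 lay above 95.04% to 98.07% of that class in aNE, pNE, pNE_T and the aNE-derived lists, and above 78.7% and 77.2% in pNE_M and pNE_H. CDH6 lay above 15.3% of it in DE, 63.5% in aNE, 48.1% in aNE_T and 85.9% to 92.4% in the other 6 lists. CDH11 lay above 93.7% of it in DE, 78.0% in aNE, 71.4% in pNE_T, 78.7% in pNE_M and 86.3% to 90.4% in the other 5. Against such windows CDH2 thus stood further out in the day 2 lists than CDH6 and CDH11.

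**Figure D5:**
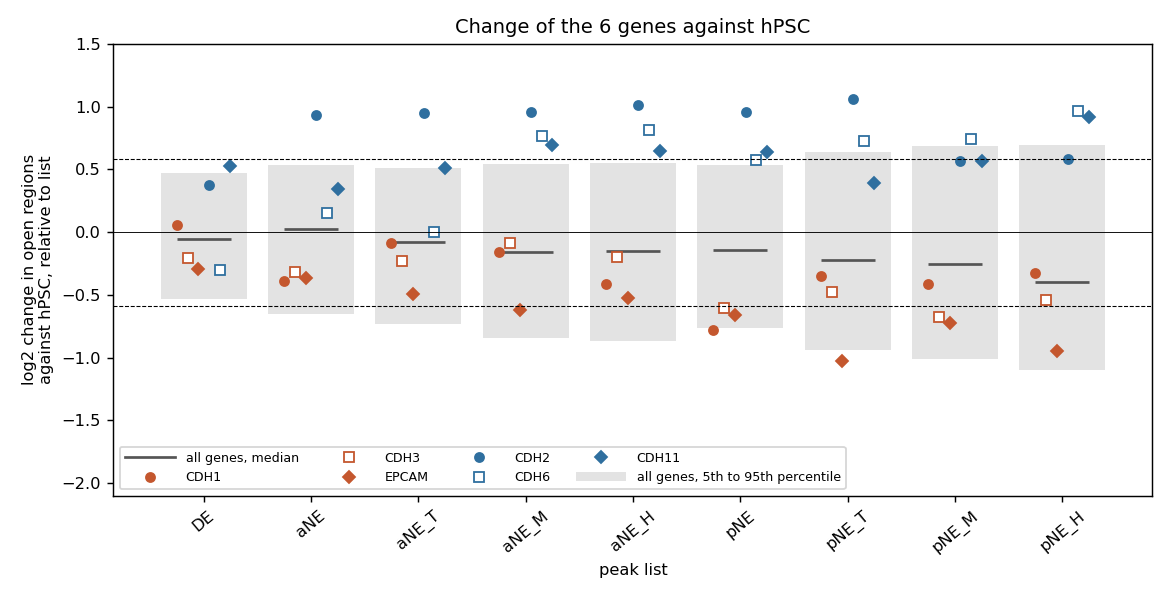
Log2 change in open regions against hPSC, relative to all open regions of the list, for the 6 genes in 9 lists. Grey boxes span the 5th to 95th percentile of all genes tested and dashed lines mark a 1.5-fold change. CDH2 lies above the box in 6 lists and EPCAM is the lowest of the 6 genes in 6 of the 9.

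Between the day 2 lists and their day 4 descendants few steps passed 1.5-fold. In the aNE branch CDH6 was 1.53-fold higher in aNE_M and 1.59-fold higher in aNE_H than in aNE and had a ratio of 0.90 in aNE_T. In the pNE branch it had ratios of 1.11, 1.12 and 1.31 in pNE_T, pNE_M and pNE_H. CDH1 had ratios of 0.99 to 1.23 in the aNE branch and 1.30 to 1.38 in the pNE branch. In the same medium, CDH6 was 1.66-fold higher in pNE_T than in aNE_T, with ratios of 0.98 in midbrain and 1.11 in hindbrain medium. CDH3 was 1.502-fold lower in pNE_M than in aNE_M.

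Partners and regulators of the cadherins were read by the same measure. Of 9 catenin and junction genes, which couple cadherins to actin or bind beside them, 0 were called higher in any of the 9 lists against hPSC and at most 2 lower. The lower ones were NECTIN3 in aNE_M (12.6% of all genes), NECTIN2 in pNE_T (18.1%), and NECTIN2 and JUP, plakoglobin, in pNE_H (36.0%). The percentages are the shares of all genes called lower in those lists, and each count, 1 or 2 of 9, was a smaller share. Of 9 repressors of epithelial genes at most 1 in each direction was called in a list. ZEB2, which encodes a repressor of CDH1, had 26 open regions in hPSC, 27 in aNE, 38 in pNE and 39 in aNE_H. It was 1.52-fold higher in pNE (4.14% of all genes called higher) and 1.57-fold in aNE_H (4.59%) than in hPSC. Other repressors were called in the lower direction only. They were SNAI2 in DE (1.82-fold, 3.63% of all genes called lower) and aNE_T (1.72-fold, 8.74%), and ZEB1 in aNE_H (1.53-fold, 13.8%). TWIST2 was lower in pNE_T (1.66-fold, 18.1%) and SNAI3 in pNE_M (1.52-fold, 22.0%).

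Of 17 genes of the epithelial programme 16 passed the minimum of 5 open regions and 0 were called higher in any list. Called lower were 1 in aNE_H (13.8% of all genes), 2 in pNE (11.0%), 2 in pNE_T (18.1%) and 3 in pNE_M (22.0%). In pNE_H 8 of 16 were, where 36.0% of all genes were. Outside pNE_H these counts were thus close to or below the share of all genes. ESRP2, an epithelial splicing regulator, was called lower in 5 lists, with 15 open regions in hPSC and 7 to 10 in those lists. CLDN6, a claudin of tight junctions, had 29 in hPSC, 19 in pNE_T and 21 in pNE_H. The median of the list was -0.02 in DE and -0.55 in pNE_H on the log2 scale, against -0.06 and -0.39 over all genes.

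By a fixed rule, the genes whose share of open regions moved most like a member over the 10 lists were sought among 14693 genes. For CDH2 these were L3MBTL3 (Pearson r 0.92), MBIP (0.91) and ALG13 (0.90), and for CDH6 RALYL, PIK3C2G and COL1A2 (0.98 each). For CDH11 they were MIPEP (0.95), LOC124902897 (0.94) and CLNK (0.91). For CDH1 they were EDEM2 (0.95), RNF220 and RNF103-CHMP3 (0.91 each), for CDH3 ISY1-RAB43 (0.99), RAB43 (0.98) and DPYSL4 (0.95), and for EPCAM RHOV (0.99), RCC2 and CRLF3 (0.98 each). The coefficients describe 10 lists that share steps and differ in length. Among the members, EPCAM had r of -0.81 with CDH6, -0.72 with CDH11, -0.57 with CDH2, 0.73 with CDH3 and 0.615 with CDH1. CDH1 had r of -0.56 with CDH2, -0.67 with CDH6, -0.40 with CDH11 and 0.78 with CDH3, whose window overlaps its own. For CDH3 the values were -0.30 with CDH2, -0.50 with CDH6 and -0.43 with CDH11. Within the neural genes r was 0.29 for CDH2 and CDH11, 0.425 for CDH2 and CDH6, and 0.68 for CDH6 and CDH11.

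Marker genes of the labelled states were read in the same way. Of 5 pluripotency markers between 2 and 5 were called lower in each of the 8 lists from day 2 on, with POU5F1, a core pluripotency factor, at 13 open regions in hPSC and 4 to 8 in the 7 lists where it was called. Over all genes 6.44% to 36.0% were called lower in these 8 lists. Of the 5 neural ectoderm, 4 telencephalon, 4 midbrain and 5 hindbrain markers 0 were called higher than in hPSC in any list, so the labels from day 2 on did not show through these markers by this measure. Called lower were EN2 in aNE_M (background 12.6%), pNE_M (22.0%) and pNE_H (36.0%), and LHX2 in pNE_T (18.1%) and pNE_H. HOXB2 was called lower in aNE_M, and SOX1 and GBX2 in pNE_H. In pNE against aNE 1 of the 5 hindbrain markers was called higher, with a background of 2.97%. Of 4 neural crest, 5 mesendoderm and 4 surface ectoderm markers, which stand for cells the cultures could also hold, at most 1 each was called higher in a list, and none was at 0 in all lists. Over all genes 2.74% to 6.24% were called higher than in hPSC. At most 2 neural crest markers and 1 of each other set were called lower in a list. FOXD3 was called lower in aNE_T, aNE_M, pNE and the 3 pNE-derived lists, with 14 open regions in hPSC and 8 to 10 in those lists. Their summed open regions ran from 57 to 87, from 48 to 71 and from 49 to 90 over the 10 lists, each highest in pNE_H, which is also the longest list and the highest for all 3 neural genes. The share of such cells in the changes at the 6 genes was not tested.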

How the data were processed

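Open chromatin was measured by OmniATAC-seq on 50000 H1 cells per library. The authors deposited 1 peak list per group, whose only columns are chromosome, start and end, so each value is a peak position and no signal, score or count came with it. The submitters' processing notes name Bowtie2, MACS2, bedtools, featureCounts, edgeR, deepTools and FastQC on hg38. The roles of these tools, the peak threshold, and how the 3 replicates were combined are not given in the sources used here. Depth is unknown.

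Peaks off chromosomes 1 to 22, X and Y were left out. Peaks of all lists that overlapped by at least 1 bp were merged, and gene positions came from RefSeq (GRCh38.p14). Shares have Wilson 95% intervals and their differences Newcombe intervals. A gene was called at 1.5-fold relative to all open regions of the list, with at least 5 open regions in 1 list. No test was possible with 1 list per group. The calling step was checked on simulated data, with 2-fold changes planted in a copy of the hPSC list without noise. That check covers the computation only, not error from depth, peak threshold or replicates. Gene lists and markers are those described in the results. Single regions are the start of each gene and the widest, at most 3 per gene, that were open up to a day and in no later list, or the reverse. Genes alike are the 3 with the highest Pearson correlation of the share of regions open, less the share of the list, among genes with at least 20 regions. Members and lists were chosen with earlier results of these data known. Alternatives were a 50% coverage rule, lists of 1 size, the wider 50% of peaks, flanks of 10 kb and 0 kb, no regions within 1 kb of gene ends, bases in place of regions and a fold of 2. Python 3.11.15, pandas 2.3.3 and numpy 2.4.6 were used.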

Additional observations from a re-analysis of the deposited data

Results flagged for a closer look

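Differences between day 4 media in the 2 gene groups had opposite signs by origin in 3 comparisons. Each set 1 list against 1 list, so the differences were not tested. Epithelial regions were open 3 percentage points more often in aNE_M than in aNE_T, and the difference of pNE_M from pNE_T was -3 points. From telencephalon to hindbrain medium the epithelial share differed by -3 points for cells of aNE origin (aNE_H less aNE_T) and by 14 points for cells of pNE origin. Neural regions were open 11.2 points more often in aNE_M than in aNE_T, while pNE_M differed from pNE_T by -4.49 points. The pNE_H list, on which the change of 14 points rests, is the longest of the 10.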

How the results depend on the processing

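The epithelial lead in hPSC ran from 28.7 to 32.8 points and in DE from 23.6 to 37.9 points over 7 alternatives. The sign of the difference held in aNE (5.86 to 14.9) and aNE_T (9.46 to 18.4) and turned in pNE (-8.21 to 4.99), aNE_M (-0.369 to 11.8), aNE_H (-4.09 to 13.1), pNE_T (-7.49 to 3.24), pNE_M (-4.81 to 10.8) and pNE_H (-13.0 to 1.96). Neural calls on day 4 ran from 2 to 15 of 18, and epithelial calls from 1 to 9. Asking peaks to cover 50% of a region gave epithelial shares of 45.0% in hPSC, 49.0% in DE, 35.0% in aNE_T, 37.0% in aNE_M, 26% in pNE, and 29.0% in both pNE_T and pNE_M. Neural shares were then 16.3% in hPSC, 20.2% in DE, 20.8% in aNE, 22.5% in aNE_T, 35.4% in aNE_M, 32.0% in aNE_H, 28.7% in pNE, 35.4% in pNE_T and 24.2% in pNE_M, with 1 neural gene higher in DE and 9 epithelial calls lower on day 4. With each list cut to its 167792 widest peaks, aNE had 47.4% of epithelial and 37.0% of neural regions open and pNE_H 40.8% and 45.2%, and 1 neural gene was higher in DE. With the wider 50% of peaks the neural share was 25.9% in DE, 27.1% in aNE_T, 36.5% in aNE_M, 31.8% in aNE_H, 32.9% in pNE and 30.6% in pNE_M. The difference in aNE_H was then 13.1 points, 1 neural gene was higher and 1 lower in DE, 1 epithelial call was lower on day 2 and 1 neural call lower on day 4. Flanks of 10 kb gave an epithelial share of 65.6% in pNE_H, with 1 epithelial gene lower and 1 neural gene higher in DE. No flank gave 68.6% there, a difference of 1.96 points, 1 neural gene higher in DE and 1 epithelial call lower on day 4. Counting bases left 0 epithelial calls lower on day 2. A fold of 2 left 0 calls on either side on day 2, and 1 epithelial and 2 neural calls on day 4. Without pNE_H, an alternative added after seeing the data, 50.6% of neural regions were open in pNE_T. The cause of these shifts was not tested. Of 138 alternative shares 109 stayed within their main interval. No paired analysis was possible because the 3 replicates of a group share 1 list, which also leaves no replicate to leave out.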

Other observations

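Some other cadherins of the same families had more open regions late in the course. Of 13 other type I and II cadherins, 1 was called higher than in hPSC in DE, 1 in aNE, 3 in pNE, 1 to 4 in the aNE-derived and 4 to 6 in the pNE-derived day 4 lists. Over all genes 2.74% to 6.24% were called higher in these lists, and 4.68% to 22.1% of genes with no other protein-coding gene in the window. In pNE_H, the longest list, 7 of the 13 were not called higher. CDH12, a type II cadherin of the brain, had 18 open regions in hPSC, 32 in DE, 17 in aNE and 34 in pNE, and 57 in pNE_M and 70 in pNE_H. CDH18 had 20 in hPSC, 38 in pNE_M and 84 in pNE_H, and CDH10 had 5, 14 and 22. CDH20 had 16 in hPSC, 32 in pNE_T and 48 in pNE_H. Relative to list size CDH12 was 3.13-fold higher in pNE_M than in hPSC, and CDH18 2.80-fold, CDH10 2.93-fold and CDH20 2.00-fold in pNE_H. In pNE against aNE 5 of the 13 were called higher, CDH7, CDH9, CDH10, CDH12 and CDH18. In that comparison 2.97% of all genes were called higher, and 8.63% of genes with no other protein-coding gene in the window. Some counts were small, with CDH9 at 3 open regions in aNE and 6 in pNE, CDH10 at 5 and 10, and CDH7 at 6 and 12. CDH9 in pNE_T (5 and 3 open regions) and CDH15 in pNE_H (17 and 16) were called lower than in hPSC.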
